A study of Mus musculus with 6 samples.

Results

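Claudins are the membrane proteins that form the strands of tight junctions, the seals between neighbouring epithelial cells. The family was taken here as every probe set that the platform annotation assigns to 1 symbol out of Cldn1, Cldn2, Cldn3, Cldn4, Cldn5, Cldn6, Cldn7, Cldn12, Cldn14 and Cldn15. That gave 18 probe sets for 10 genes, of 45037 probe sets tested for 18193 named genes. All 10 genes had at least 1 probe set, Cldn1 and Cldn3 had 4 each, Cldn2 and Cldn12 had 2 each, and the other genes had 1.

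The arrays measured total RNA of whole fetal mouse livers taken late in gestation at E18.5, 1 array per sample. The 3 control samples carried 1 loxP-flanked and 1 unflanked Hnf4 allele with the AlfpCre transgene, labelled Hnf4LoxP/+AlfpCre. The 3 null samples carried 2 flanked alleles with the same transgene, labelled HNF4LoxP/LoxP AlfpCre, so that both groups express Cre and the controls are heterozygous. AlfpCre is driven by albumin and alpha-fetoprotein regulatory elements, which direct recombination to hepatocytes and their precursors. Those precursors also give rise to bile duct cells, while cells outside that lineage, such as endothelium and blood cells, are not its target. Hnf4a encodes HNF4 alpha, a nuclear receptor of hepatocytes, and the comparison asks which transcripts differ when both alleles are targeted. The study is known to have looked at cell adhesion and junctions on these arrays, so the direction of such genes here is not independent evidence. Samples are named by group and title number, as Control_8, Control_1192, Control_1193, Null_61, Null_1191 and Null_1195.

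Claudins span the membrane several times and meet claudins of the next cell through their outer loops. Some, such as claudin 1, mainly seal the gap between cells, and others, such as claudins 2 and 15, form pores that let small ions through. In the liver, tight junctions between hepatocytes separate bile in the canaliculus from blood, and bile duct cells and endothelium carry claudins of their own. Occludin and tricellulin sit in the same strands, and the ZO proteins tie them to the cytoskeleton.

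The promoters of the 2 claudin genes that fell, Cldn1 and Cldn12, and of Cldn15, which had the highest log2 change of the members, are shown for the bases that lie upstream of the transcription start. Each run holds the 250 bases before the start, read 5′ to 3′ on the gene's strand, from RefSeq on build GRCm38.p6. The Cldn1 run is chr16:26371840-26372089 on the minus strand, the Cldn12 run is chr5:5514977-5515226 on the minus strand, for the first of 3 listed starts, and the Cldn15 run is chr5:136967619-136967868 on the plus strand. Capitals mark a stretch that differs in at most 1 base from CAAAGTCCA, a sequence bound by HNF4 alpha, on either strand.
Cldn1: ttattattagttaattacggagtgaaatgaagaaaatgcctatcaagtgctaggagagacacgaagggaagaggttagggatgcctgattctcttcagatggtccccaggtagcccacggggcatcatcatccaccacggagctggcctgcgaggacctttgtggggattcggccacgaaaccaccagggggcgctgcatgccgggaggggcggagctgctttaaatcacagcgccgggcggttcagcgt
Cldn12: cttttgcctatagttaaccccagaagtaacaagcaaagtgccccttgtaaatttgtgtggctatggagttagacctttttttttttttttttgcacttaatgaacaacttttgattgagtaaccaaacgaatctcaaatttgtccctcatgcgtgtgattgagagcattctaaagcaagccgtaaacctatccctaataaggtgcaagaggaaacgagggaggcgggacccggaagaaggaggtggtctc
Cldn15: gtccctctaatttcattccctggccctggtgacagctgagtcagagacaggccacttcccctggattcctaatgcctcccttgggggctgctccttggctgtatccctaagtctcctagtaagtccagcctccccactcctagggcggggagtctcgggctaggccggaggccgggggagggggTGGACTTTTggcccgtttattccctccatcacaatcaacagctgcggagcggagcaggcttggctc
The 10 genes had 15 windows of 300 bases in the table, reaching from 250 bases before to 50 bases after a start. None of them held CAAAGTCCA on either strand, which occurs in 0.475% of all 32851 such windows, or the exact DR1 element, a direct repeat of the nuclear receptor core site with a spacer of 1 base, which occurs in 0.0396%. Neither motif contains the other. With 1 mismatch allowed, CAAAGTCCA was matched in the 250 upstream bases of Cldn15 by TGGACTTTT, which begins 66 bases before the start. The same search matched 1 window each of Cldn3 and Cldn14, and 7.05% of all windows. These letters are a description of the windows and say nothing of binding elsewhere.

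The array values are linear probe-set intensities, given below as deposited, with means ± SD over n = 3 samples in each group. Array medians ran from 91.8 to 99.5, and 99.5 is used below as a mark of a dim signal. Log2 changes are null minus control of values to which 32 was added first, so that changes of dim probe sets are understated, and adjusted p values come from limma with Benjamini-Hochberg adjustment over all 45037 probe sets. The labels do not name litters, so the p values reflect only how these 6 arrays vary. Alb and Afp, the defining hepatocyte transcripts, read 10165 to 11079 and 11302 to 11995 on all 6 arrays. These lie near the highest value of each array, 12299 to 12608, where a moderate change may not show. Hnf4a itself stayed well detected, with 1421983_s_at at 1201, 1127 and 1135 in Control_8, Control_1192 and Control_1193 and at 793, 527 and 834 in Null_61, Null_1191 and Null_1195 (adjusted p = 0.0434 in limma). Of its 4 probe sets 2 were called, and their position relative to the loxP sites was not examined. The samples numbered 8 and 61 stood apart from the other 4 in the control signal for 18S ribosomal RNA, at 42.1 and 33.5 against 449 to 616, so values are also given for each of these sets. By Xist against Y-linked transcripts, Control_8, Null_1191 and Null_1195 read as female and the other samples as male. Within each of these sets, group and embryo sex therefore cannot be told apart.

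Claudin expression fell in the null livers in a few members, and by very different amounts. Cldn1 fell 17.0-fold in its brightest probe set, Cldn12 fell 2.01-fold, and the other 8 genes did not pass the test. Of the 18 probe sets 5 (27.8%) were called lower at an adjusted p under 0.05, where 5.55% of all probe sets were called lower. In either direction 7.01% of all probe sets were called. None of the 18 was called higher by limma, where 1.46% of all were, and 1 was higher at an unadjusted p under 0.05, where 9.56% of all were. At that unadjusted threshold 8 of the 18 were lower, where 11.6% of all were. Counted by gene, 2 of 10 had a probe set called lower, where 9.73% of all genes had. The 3 Cldn1 and 2 Cldn12 probe sets behind these counts each share a gene. In 9 of the 18 the groups did not overlap, 8 of them lower in the nulls, where 13.8% of all probe sets did not overlap in that direction, and 1 higher, where 13.6% did. The median log2 change over the 18 was -0.23, and over all probe sets it was 0.03. In the controls 10 of the 18 read above 99.5 on all 3 arrays, and 5 read below it on all 6 arrays, so that much of the family lies in the dim range.

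**Figure D1:**
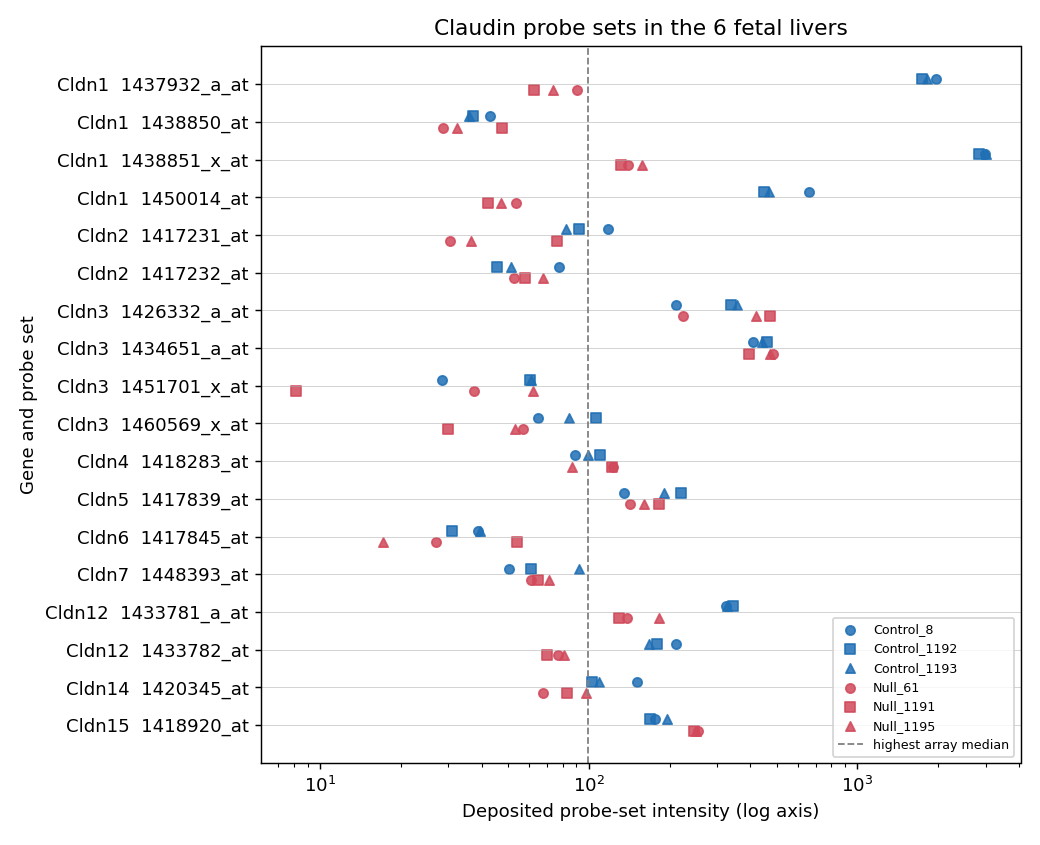
Deposited intensity (horizontal, log axis) of each of the 18 claudin probe sets (vertical) in the 3 control livers (blue) and 3 null livers (red), 1 marker per array, with the highest array median of 99.5 as a dashed line. In 3 Cldn1 probe sets and both Cldn12 probe sets all null samples lie below all controls, and in Cldn15 all null samples lie above.

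Cldn1 encodes claudin 1, a barrier-forming claudin of hepatocyte and bile duct junctions. Its brightest probe set, 1438851_x_at, read 2974, 2839 and 3008 in Control_8, Control_1192 and Control_1193, and 140, 132 and 158 in Null_61, Null_1191 and Null_1195. The nulls were all low and close to each other, above the array medians, and far from every control. The means were 2940 ± 89.6 and 144 ± 13.4, so that 4.88% of the control signal remained. The log2 change was -4.08 (standard error 0.11, 95% interval -4.33 to -3.84, adjusted p = 2.3e-07 in limma), a fold of 17.0 with an interval from 14.3 to 20.1.

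The probe set 1437932_a_at read 1953, 1738 and 1818 among controls and 90.1, 62.6 and 73.8 in the nulls, in the same order of samples. Here each null fell under the 99.5 mark. Its mean went from 1836 ± 108 to 75.5 ± 13.9, with 4.11% remaining, and its log2 change was -4.13 (standard error 0.13, adjusted p = 4.9e-07 in limma). The third, 1450014_at, read 660, 448 and 469 among controls and 53.8, 42.4 and 47.0 in the nulls. Its log2 change of -2.79 (standard error 0.16, adjusted p = 1.2e-05 in limma) was smaller, from a lower control signal to null values that were also under the mark.

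The fourth Cldn1 probe set disagreed with the others. 1438850_at, which the annotation ties to the same source sequence as 1438851_x_at, read 42.8, 37.3 and 35.9 among controls and 28.7, 47.5 and 32.2 in the nulls. It was dim on every array and its groups overlapped, with a log2 change of -0.06 (95% interval -0.40 to 0.28).

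The fall of Cldn1 was seen in each set of samples. Null_61 minus Control_8 was -4.13 on the log2 scale in 1438851_x_at, and the fit of the other 4 arrays gave -4.06 (adjusted p = 9e-07 in limma). Null_1191, which had the lowest signal of the nulls in all 4 Hnf4a probe sets, was also the lowest of them in the 3 called Cldn1 probe sets, and 3 null samples are too few for a test of that order. Over the 16 alternatives to the fit, the log2 change ran from -4.35 to -3.64 in 1438851_x_at and from -4.60 to -3.47 in 1437932_a_at, and both were called in every one.

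Cldn12 encodes claudin 12, a widely expressed member. Probe set 1433781_a_at read 325, 346 and 326 in Control_8, Control_1192 and Control_1193 and 139, 130 and 183 in Null_61, Null_1191 and Null_1195. The lowest control was well above the highest null, and all 6 values were above the 99.5 mark. The means were 332 ± 11.6 and 151 ± 28.7, and the log2 change was -1.01 (standard error 0.14, 95% interval -1.32 to -0.69, adjusted p = 0.00239 in limma). The second probe set, 1433782_at, read 212, 180 and 167 among controls and 77.2, 70.1 and 81.2 in the nulls. It gave the same log2 change of -1.01 (standard error 0.13, 95% interval -1.30 to -0.72, adjusted p = 0.00141 in limma). Null_1191 was again the lowest sample in both. Both probe sets put Cldn12 at close to the same ratio, and both were called in all 16 alternatives. Null_61 minus Control_8 was -1.06 and -1.16, and the other 4 arrays gave -0.98 and -0.93.

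In these whole livers, fewer cells of a type and less RNA per cell cannot be told apart. Beside the falls of Cldn1 and Cldn12, 4 of 7 measured hepatocyte markers were called lower and none higher. The summed signal of these markers ran from 65736 to 66774 among controls and from 38799 to 42192 among nulls. Each marker, here and below, was read by its brightest probe set. By that measure 7.85% of all genes were called lower. At least 1 probe set was called higher in 2.53% of all genes. The 4 hepatocyte markers called lower were Ttr, Apoa1, Apoa2 and Fgb, genes of secreted plasma proteins, as Alb and Afp also are. Their control values, from 10333 for Ttr to 11956 for Apoa1, also lie near the highest value of each array. The size of their falls, and of the fall in the sum, may therefore be understated. Alb, Afp and Prox1 were not called, with Prox1 at 125 to 245 among controls and 131 to 245 among nulls. No hepatocyte marker was at 0 on any array. Markers of blood cells moved as well. Of 6 megakaryocyte markers 4 were called lower, with a summed signal of 5290 to 7303 among controls and 3688 to 4254 among nulls. Of 9 macrophage markers 3 were called higher, Adgre1, Timd4 and Clec4f, with a summed signal of 3714 to 4283 among controls and 5303 to 8734 among nulls. No marker of 7 erythroid and 9 mesenchymal ones was called by limma, while 2 and 3 of them had an unadjusted p under 0.05. The erythroid sum was higher in every null, at 16860 to 17996 among controls and 19087 to 19703 among nulls. The mesenchymal sum was 3511 to 4533 among controls and 4347 to 7272 among nulls, which overlap. The part of cell number and cell content in the values of the claudins and the other junction genes was not tested.

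**Figure D2:**
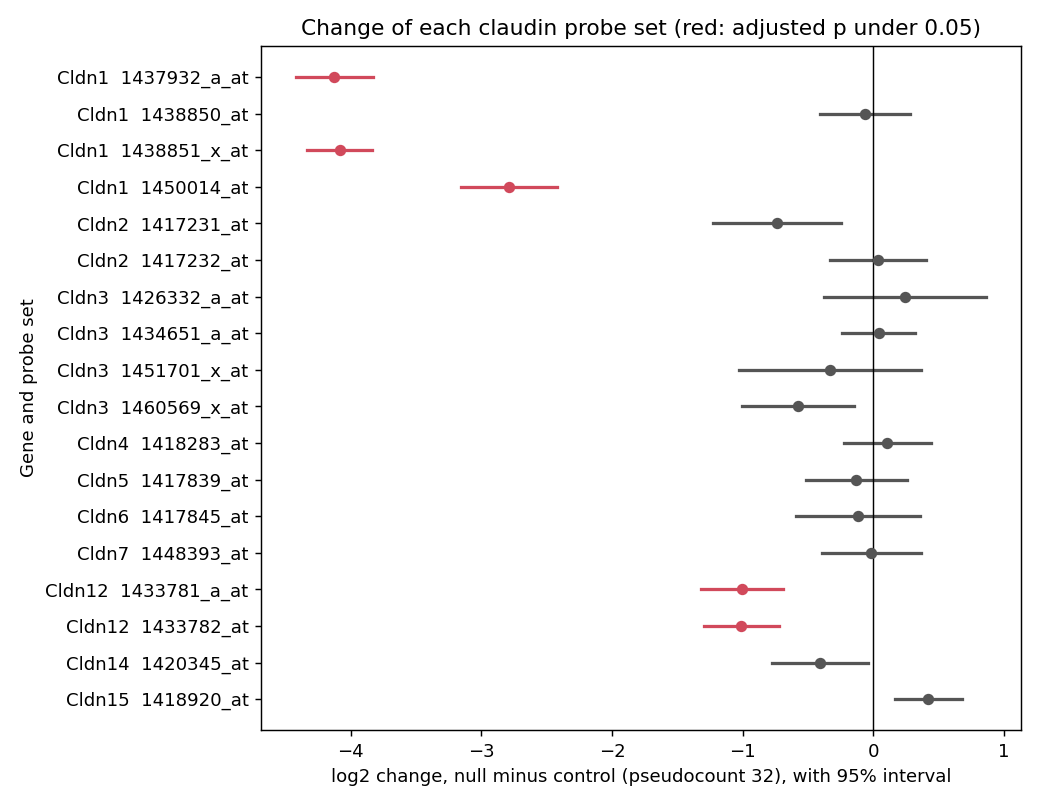
Log2 change, null minus control, of each claudin probe set (point) with its 95% interval from limma (line), in red where the adjusted p was under 0.05. The 3 called Cldn1 probe sets lie between -4.13 and -2.79, both Cldn12 probe sets lie at -1.01, and the 13 others lie between -0.74 and 0.42.

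Cldn2 encodes a pore-forming claudin of hepatocytes. Its probe set 1417231_at read 118, 92.1 and 82.5 in Control_8, Control_1192 and Control_1193 and 30.4, 76.0 and 36.4 in Null_61, Null_1191 and Null_1195. All nulls were below all controls, but Null_1191 was near the lowest control. The log2 change of -0.74 (95% interval -1.22 to -0.25) had an adjusted p of 0.0848 in limma. It was called with the samples numbered 8 and 61 against the other 4 as a block (adjusted p = 0.0443) and without Null_1191 (-0.98, adjusted p = 0.0179), and over the 15 alternatives that tested it the adjusted p reached 0.242. The other probe set, 1417232_at, read 45.6 to 77.4 among controls and 52.9 to 67.8 in the nulls, and its groups overlapped (log2 change 0.04, 95% interval -0.33 to 0.40). The probe sets of Cldn2 thus disagree at this dim level.

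Cldn14 encodes a claudin best known from the inner ear that is also expressed in liver. It read 152, 103 and 109 among controls and 67.9, 83.3 and 97.9 in the nulls. The groups did not overlap, with Null_1195 close to the lowest control. The log2 change was -0.41 (95% interval -0.78 to -0.04, adjusted p = 0.189 in limma), and in the 4 arrays without Control_8 and Null_61 it was -0.17. None of the 16 alternatives called it.

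Cldn3, Cldn4 and Cldn7 encode claudins of many epithelia, bile ducts among them. The brightest Cldn3 probe set, 1434651_a_at, read 407, 460 and 440 in Control_8, Control_1192 and Control_1193 and 486, 395 and 473 in Null_61, Null_1191 and Null_1195. Its groups overlapped, all values were above the 99.5 mark, and the log2 change was 0.04. The 95% interval from -0.24 to 0.32 does not reach a fall of the size measured for Cldn12. Probe set 1426332_a_at read 212, 339 and 357 among controls and 225, 472 and 420 among nulls. The lowest samples were the 2 numbered 8 and 61, and the groups overlapped (log2 change 0.24, 95% interval -0.37 to 0.86).

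The dimmer Cldn3 probe sets pointed the other way. 1460569_x_at read 64.8, 106 and 84.3 among controls and 57.0, 29.9 and 53.4 in the nulls, with no overlap (log2 change -0.58, adjusted p = 0.119 in limma). It was called in the 4 arrays other than Control_8 and Null_61 (-0.80, adjusted p = 0.0367) and with array weights (-0.74, adjusted p = 0.0277). 1451701_x_at read 28.4 to 61.2 among controls and 8.12 to 62.0 in the nulls, with an overlap. With probe sets on both sides of 0, Cldn3 is given no direction.

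Cldn4 read 89.0, 110 and 99.7 among controls and 124, 122 and 86.4 in the nulls, with a log2 change of 0.11 (95% interval -0.22 to 0.44). Cldn7 read 50.4 to 92.2 among controls and 60.8 to 71.1 in the nulls, under the 99.5 mark on every array (log2 change -0.01, 95% interval -0.39 to 0.36). In both genes the groups overlapped. Of 8 measured bile duct markers none was called by limma, and 2 had an unadjusted p under 0.05. Their summed signal was 5958 to 7215 among controls and 6224 to 7399 among nulls, and none was at 0. Cd24a, which is not restricted to bile ducts, held 5151 to 6227 and 5260 to 6500 of it, and the other 7 summed to 807 to 988 and 744 to 964. Krt19, a keratin of bile duct cells, read 55.0 to 85.1 among controls and 41.5 to 61.9 in the nulls. The brighter Epcam leaned the other way, at 381 to 474 among controls and 411 to 586 in the nulls. The median log2 change of the 8 markers was -0.07.

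Cldn5 encodes the main claudin of endothelium. It read 136, 221 and 191 in Control_8, Control_1192 and Control_1193 and 142, 182 and 161 in Null_61, Null_1191 and Null_1195. The groups overlapped, and the lowest sample of each was again the one numbered 8 or 61. The log2 change was -0.13 (95% interval -0.52 to 0.26, adjusted p = 0.706 in limma). Of 14 endothelial markers 3 were called lower, Kdr, Tek and Stab2, and their list had a summed signal of 2904 to 3252 among controls and 2336 to 2669 among nulls. Cdh5, an endothelial cadherin, read 313 to 370 among controls and 304 to 340 among nulls, and no marker of the list was at 0 on all arrays. Their part in the Cldn5 values was not tested.

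Cldn15 encodes a pore-forming claudin best known from the intestine. It read 176, 169 and 195 in Control_8, Control_1192 and Control_1193 and 255, 247 and 252 in Null_61, Null_1191 and Null_1195. All nulls were above all controls and close to each other. The means were 180 ± 13.7 and 251 ± 3.86, and the log2 change of 0.42 (95% interval 0.17 to 0.68) had an adjusted p of 0.0624 in limma. Over the 16 alternatives that test all probe sets or a filtered set of them, the adjusted p ranged from 0.0295 to 0.216. It was called in 4 of these: quantile normalization (0.0295), the filter on dim probe sets (0.0330), array weights (0.0375) and the samples numbered 8 and 61 against the other 4 as a block (0.0348). In the fit of 18193 genes, each by the mean of its probe sets, Cldn15 was called too (adjusted p = 0.0221 in limma). It has 1 probe set, so its log2 change was the same there and the number of tests differed. Null_61 minus Control_8 was 0.46, and the other 4 arrays gave 0.40 (adjusted p = 0.110).

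Markers of other tissues that carry Cldn15 gave mixed values. Of 8 mesothelial markers 1 was called higher, Wt1, at 11.9 to 29.1 among controls and 43.1 to 57.0 in the nulls, and 2 lower, Upk1b and Krt8. The summed signal of that list was 1338 to 1619 among controls and 1017 to 1146 among nulls. Krt8, a keratin that hepatocytes also express, held 680 to 800.0 and 288 to 504 of it, and the other 7 summed to 538 to 911 and 599 to 729, which overlap. Of 12 gut and pancreas markers 2 were called lower, Tff3 and Fabp2, and none higher. Their sum was 5359 to 6953 among controls and 1951 to 2286 among nulls, of which Tff3 held 3211 to 4696 and 87.2 to 173. The other 11 summed to 2041 to 2267 and 1853 to 2137, which overlap. Cdx2, an intestinal transcription factor, read 74.3 to 89.1 among controls and 68.6 to 109 in the nulls.

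Cldn6 encodes a claudin of embryonic epithelia. It read 38.7, 31.1 and 39.5 among controls and 26.9, 54.1 and 17.1 in the nulls, under the 99.5 mark on all arrays. The nulls lay on both sides of the controls (log2 change -0.12, 95% interval -0.59 to 0.36).

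**Figure D3:**
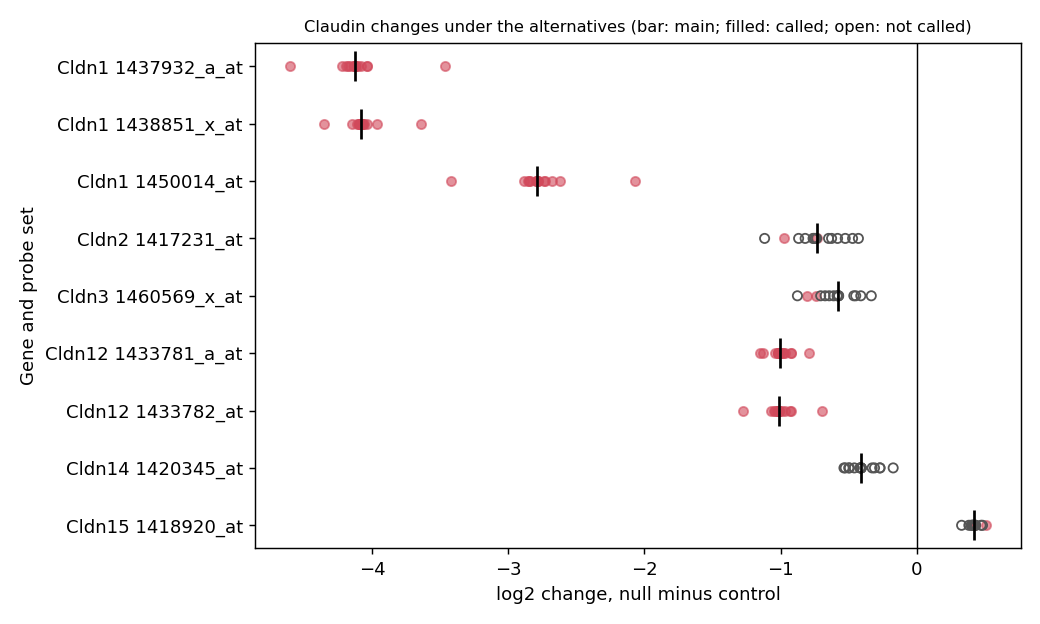
Log2 change, null minus control (horizontal), of the 9 claudin probe sets with an unadjusted p under 0.05, as reported (vertical bar) and under each alternative (circles, filled where the adjusted p was under 0.05). The Cldn1 and Cldn12 circles are all filled, those of Cldn14 are all open, and Cldn2, Cldn3 and Cldn15 are called in 2, 2 and 4 of the alternatives plotted.

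The platform names 14 more claudin genes, with 17 probe sets. None of these probe sets was called by limma, where 7.01% of all probe sets were. At an unadjusted p under 0.05 there was 1, where 11.6% of all were lower and 9.56% higher. The smallest adjusted p was 0.133. Their log2 changes ran from -0.39 to 0.64, and 12 of the 17 were never above the 99.5 mark. On the chromosome, by the order of protein-coding genes in the RefSeq table, Cldn1 lies between P3h2 and Cldn16, and Cldn12 between Pttg1ip2 and Gtpbp10. None of these 4 neighbours had a called probe set, but all read under the mark in the control mean. Of the 32 measured genes that lie within 2 genes of a member, members aside, 3 (9.38%) had a called probe set, where 12.2% of all genes had. Morc4, next to Cldn2, fell from a mean of 562 to 113 (log2 change -2.01, adjusted p = 0.000248 in limma). Trp63, 2 genes before Cldn1, was called lower in 2 of 4 probe sets, 1459581_at and 1452027_a_at (log2 changes -3.84 and -1.03). The null mean of 1459581_at was below 0, against 455 in controls, so the size of that change depends on the 32 added. The brightest Trp63 probe set, 1451876_a_at, was not called, at a mean of 633 and 307 (-0.88, adjusted p = 0.236 in limma). Gp1bb, 2 genes before Cldn5 and one of the megakaryocyte markers, was called lower in 1 of 2 probe sets, from 306 to 155 (log2 change -0.85, adjusted p = 0.0227 in limma).

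The genes whose pattern over the 6 arrays was closest to that of Cldn1 were searched among the brightest probe sets of 18192 genes. The measure was the Euclidean distance between log2 values taken from each control mean, for 1437932_a_at. The closest were Hao2, a peroxisomal hydroxyacid oxidase (distance 0.21), Hsd3b1, a hydroxysteroid dehydrogenase (0.43), Gpd1, the cytosolic glycerol phosphate dehydrogenase (0.50), Cpn2, a subunit of plasma carboxypeptidase N (0.51), and Tmem52, whose null mean was below 0 (0.54). Their log2 changes lay between -4.32 and -3.90, and a change near that of Cldn1 follows from the choice by this distance. No claudin was called higher, so no such search was made for a rise.

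Some other tight junction genes were called lower too, and none was called higher. Of 40 measured genes of a list of strand proteins, adaptors and polarity proteins, 15 (37.5%) had at least 1 probe set called lower, where 9.73% of all genes had. None had one called higher by limma, where 2.53% of all had, and 4 had one that was higher at an unadjusted p under 0.05. The share of all genes at that unadjusted threshold was not counted, so the 4 cannot be called few or many. In 11 of the 15 only some of the gene's probe sets were called. A gene with more probe sets has more chances of a call, and this was not matched between the list and all genes. By the brightest probe set of each gene, 8 of the 40 were lower, where 7.85% of all genes were, and the median log2 change was -0.09 against 0.01 over all genes. The count of called genes, 15 here, was 8 without Control_1192, 8 without Control_1193, 9 without Null_1191 and 10 with embryo sex as a term. It was highest with array weights, at 19.

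Membrane proteins of the cell surface made up 7 of the 15, out of 13 measured. The other 27 proteins of the list, mainly cytoplasmic, made up the remaining 8, a division made after the values were seen. Ocln, which encodes occludin of the junction strand, fell from 247 ± 9.62 to 50.6 ± 13.1 (a log2 change of -1.77 with an adjusted p of 8.5e-05 in limma), and both its probe sets were called. Marveld2, for tricellulin at corners where 3 cells meet, fell from 217 ± 9.23 to 72.6 ± 20.2. F11r, for the junctional adhesion molecule A, fell from 714 ± 96.7 to 281 ± 56.0 in 1 of 2 probe sets. Cxadr, for an adhesion receptor also used by viruses, fell from 261 ± 49.5 to 76.5 ± 12.8 in the probe set with the smallest adjusted p, while its brightest was not called.

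Crb3, for a small membrane protein of apical polarity, fell from 163 ± 37.8 to 16.3 ± 10.3 in 1 of 3 probe sets, and Epb41l5, a polarity regulator, from 295 ± 9.51 to 101 ± 14.8 in 1 of 4. Tjp1, which encodes the scaffold ZO-1, read 957, 976 and 961 in Control_8, Control_1192 and Control_1193 and 894, 993 and 1215 in Null_61, Null_1191 and Null_1195. Its groups overlapped (log2 change 0.09, adjusted p = 0.748 in limma). Tjp3, for ZO-3, was dim, at 50.2 to 69.8 among controls and 51.3 to 74.6 in the nulls, and was not called.

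**Figure D4:**
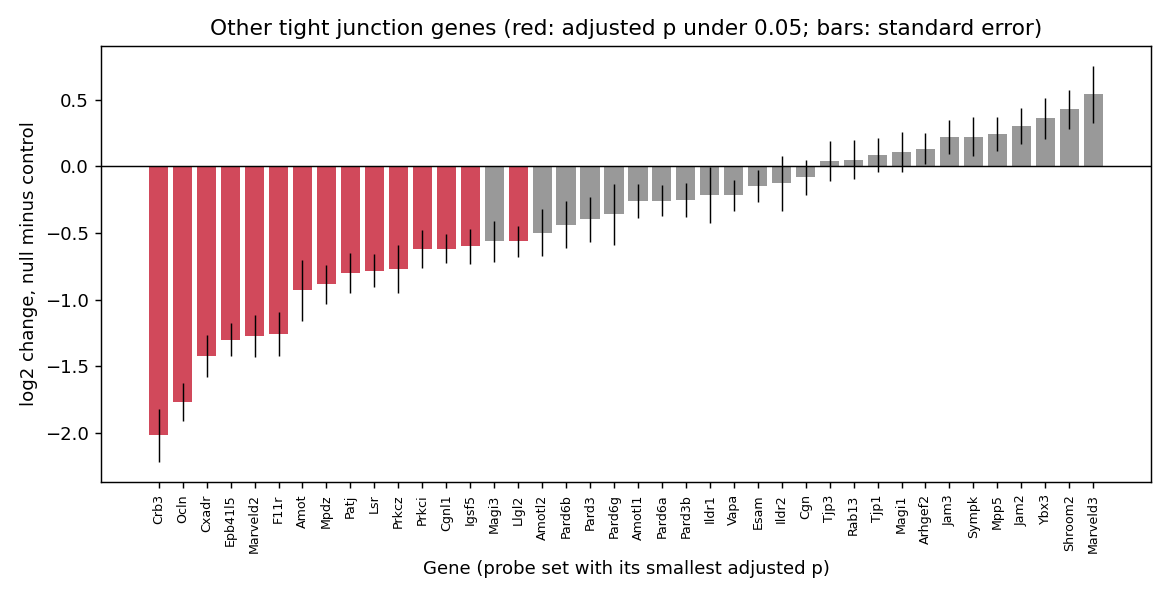
Log2 change, null minus control, of 40 other tight junction genes, each by the probe set with its smallest adjusted p (bars, with standard error), in red where that p was under 0.05. The 15 red bars all point down, Crb3 (-2.02) and Ocln (-1.77) being the longest, and Tjp1 (0.09) lies near 0.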

How the data were processed

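Total RNA of 6 fetal livers was hybridised to Affymetrix mouse arrays, per the labels' protocols. The intensities were used as deposited, on a linear scale. About 1% are negative, so a background had been subtracted; how probes were summarised and arrays scaled was not stated in the labels. Negative intensities were raised to 0, and log2 was taken of the intensity plus 32, with no further scaling, since array medians differed by at most 0.0877. From the 45101 probe sets on the array, the 64 hybridisation and housekeeping controls were dropped. The platform annotation gave 34945 of the rest 1 symbol. All 45037 were fitted with limma 3.58.1 in R 4.3.3 (lmFit, eBayes with an intensity trend, no covariate, two-sided) and adjusted together, with a threshold of 0.05. Simulated data had the same noise for every probe set and 200 log2 changes of 1 or 2 in size, placed in brighter probe sets. The fit recovered 100% of these changes and made 14 false calls. That setting does not cover changes smaller than 1, or dim probe sets, such as many of the claudins.

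The members and lists were chosen with earlier results of these data known. Named are all members, Hnf4a, the junction genes with the smallest adjusted p, a fixed set of junction and marker genes, the genes most like Cldn1, and chromosomal neighbours, which were added after the values were seen. Promoters came from RefSeq by symbol, with all 10 genes matched; the single-mismatch search was added later. The number of arrays limits the precision, and an exact permutation test of 3 against 3 was not used.

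Alternatives were quantile normalization, centred medians, a pseudocount of 1 or 100, a filter on dim probe sets, no trend, array weights, the split of title numbers (Control_8 and Null_61 against the other 4, a split of numbers with no batch named in the labels) as a block or those other 4 alone, embryo sex as a term, each array left out, and the mean of a gene's probe sets.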

Additional observations from a re-analysis of the deposited data

How the results depend on the processing

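The count of lower claudin probe sets was 5 or 6 under all alternatives, and the Cldn1 and Cldn12 calls kept their direction and side of the threshold. The filter on dim probe sets kept 11 of the 18. The count of higher claudin probe sets was 1 in place of 0, the one of Cldn15, with quantile normalization (log2 change 0.51), the dim filter (0.42), array weights (0.41) and the samples numbered 8 and 61 against the other 4 as a block (0.42). Genes with a called probe set numbered 4 in place of 2 with array weights and with the block. With 1 array left out, 8 to 18 tight junction genes were called. In the fit of 18193 gene means, Cldn15, with 1 probe set and so the same change of 0.42, was called (adjusted p = 0.0221), and Cldn3 changed sign to -0.15.

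Other changes of sign were of probe sets not called in either fit. Cldn2 1417232_at was at -0.0100 with quantile normalization and -0.065 with embryo sex as a term, where Cldn7 was at 0.033. Cldn1 1438850_at, Cldn3 1434651_a_at and Cldn6 were at 0.039, -0.035 and 0.029 with array weights. In the 4 arrays other than Control_8 and Null_61, Cldn1 1438850_at, Cldn3 1434651_a_at and Cldn4 were at 0.060, -0.054 and -0.018. With 1 array left out, the range was -0.18 to 0.018 for Cldn1 1438850_at, -0.063 to 0.18 for Cldn2 1417232_at, -0.0089 to 0.13 for Cldn3 1434651_a_at, -0.61 to 0.0058 for Cldn3 1451701_x_at, -0.34 to 0.060 for Cldn6 and -0.14 to 0.15 for Cldn7. The cause was not tested. Low signal over background limits the dim members. No paired analysis was possible because the groups share no replicate number.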
